A study of Mus musculus with 56 samples.

Results

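The genes described here are 10 transcription factors that mark or set lineage identity in the mammary gland, namely Gata3, Elf5, Foxa1, Esr1, Pgr, Sox9, Sox10, Trp63, Tfap2a and Tfap2c. They were chosen by name, not by a measured value, and all 10 were found among the 20314 genes of the expression table. RNA-sequencing was analysed in 56 samples of mammary tumor cell lines from MMTV-PyMT mice of the FVB/N strain, in which the mouse mammary tumor virus promoter drives the polyoma middle T oncogene in mammary epithelium. Every line carried this transgene and engineered β-catenin alleles. The fl/fl cells had floxed alleles without a point mutation. D164A/fl, ΔC/fl and dm/fl cells carried a mutant allele beside a floxed one. In D164A/-, ΔC/- and dm/- cells the floxed allele had been deleted by Cre recombinase, which for D164A the methods describe as delivered by adenovirus, with sorting of the infected cells. With D164A, β-catenin no longer binds Bcl9 or Bcl9L, and the labels do not spell out ΔC or dm. Each of these 7 genotypes, called lines below, was cultured without cytokine or with Wnt3a at 100 ng/ml for 3 days, and a second set without cytokine or with 2 ng/ml TGFβ over 4 days, with 2 replicates in each of the 28 conditions. Untreated cells were grown separately for both experiments, so every line had 4 untreated samples. The methods call the replicates biological duplicates, but the labels do not say whether they were separate tumors, lines or cultures, so the p-values measure only the spread between these samples, and a genotype and a cell line cannot be told apart.

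The mammary epithelium has an inner luminal layer, with milk-forming and hormone-sensing cells, and an outer basal layer. Gata3 is needed to build and keep the luminal layer, Elf5 drives the milk-forming alveolar fate, and Foxa1 opens chromatin for the estrogen receptor in hormone-sensing cells, whereas Trp63 (p63) is the master regulator of the basal layer and Sox9 and Sox10 are known from progenitor states. TGFβ is a well-known inducer of epithelial-mesenchymal transition, in which epithelial cells give up parts of their identity.

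RefSeq promoter sequences (build GRCm38.p6) were found for 6 of the 10 genes, with 9 start sites, and 250 bases before the start were searched on both strands for GCCNNNGGC, the letters bound by AP-2 factors such as Tfap2a and Tfap2c, for AGATAA, bound by Gata factors, for CTTTGA as well as for CTTTGT, the letters bound by the TCF/LEF partners of β-catenin, and for CAGGTG, an E-box of ZEB and Snail proteins. GCCNNNGGC reads the same on both strands and each such match was counted once. The windows shown belong to Elf5, whose untreated level ranged most widely among the 10 genes, to Foxa1, which fell with Wnt3a in a mutant line, and to Gata3 and Esr1, which fell with TGFβ in some lines. Capitals mark the matches, which are printed as their reverse complement where the motif lay on the opposite strand. The windows are chr2:103411848-103412097 (plus strand) and chr2:103423818-103424067 (plus strand) for Elf5, chr12:57546112-57546361 (minus strand) for Foxa1, chr2:9878601-9878850 (minus strand) for Gata3 and chr10:4611739-4611988 (plus strand) for Esr1, each ending at the base before an annotated start site and printed 5′ to 3′ on the strand of the gene.
Elf5, upstream start: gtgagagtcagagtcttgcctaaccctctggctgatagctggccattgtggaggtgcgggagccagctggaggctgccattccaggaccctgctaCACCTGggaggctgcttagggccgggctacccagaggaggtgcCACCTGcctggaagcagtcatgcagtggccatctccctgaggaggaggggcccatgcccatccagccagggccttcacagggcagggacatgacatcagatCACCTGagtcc
Elf5, downstream start: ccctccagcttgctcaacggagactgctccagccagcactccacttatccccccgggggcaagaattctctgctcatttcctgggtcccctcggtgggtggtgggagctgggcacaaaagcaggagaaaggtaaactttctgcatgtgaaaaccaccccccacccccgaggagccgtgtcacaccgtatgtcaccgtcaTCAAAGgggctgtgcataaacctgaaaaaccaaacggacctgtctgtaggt
Foxa1: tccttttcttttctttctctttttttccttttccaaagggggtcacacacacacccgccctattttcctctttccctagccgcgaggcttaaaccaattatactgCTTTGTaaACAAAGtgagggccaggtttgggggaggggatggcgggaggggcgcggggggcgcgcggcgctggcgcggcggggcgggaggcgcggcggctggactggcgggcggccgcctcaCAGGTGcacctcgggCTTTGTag
Gata3: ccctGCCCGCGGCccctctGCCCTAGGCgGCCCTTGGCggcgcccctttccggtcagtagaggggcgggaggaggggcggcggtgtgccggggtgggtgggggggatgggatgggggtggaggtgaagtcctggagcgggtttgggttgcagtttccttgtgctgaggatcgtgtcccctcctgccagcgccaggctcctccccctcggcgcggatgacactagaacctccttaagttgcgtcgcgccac
Esr1: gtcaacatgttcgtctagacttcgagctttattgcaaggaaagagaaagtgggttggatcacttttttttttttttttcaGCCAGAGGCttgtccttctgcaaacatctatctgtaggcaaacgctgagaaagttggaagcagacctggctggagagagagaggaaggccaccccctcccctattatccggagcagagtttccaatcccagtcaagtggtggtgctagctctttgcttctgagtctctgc
The upstream Elf5 window held 3 E-box matches and the downstream one 1 CTTTGA match. The Foxa1 window held 3 CTTTGT matches and 1 E-box match, the Gata3 window 3 AP-2 matches and the Esr1 window 1 AP-2 match. Among 32851 promoters of the same length, 13.7% held an AP-2 match, 9.99% AGATAA, 13.8% CTTTGA, 16.5% CTTTGT and 17.2% CAGGTG. The window of Pgr held 1 CTTTGA and 1 CAGGTG match, the second window of Esr1 and both windows of Tfap2a held none, and a match is a description of letters, not of binding.

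On GRCm38 the genes lie at chr2:9857078-9887953 (Gata3, Entrez ID 14462, minus strand), chr2:103412098-103450989 (Elf5, 13711, plus), chr12:57540628-57548029 (Foxa1, 15375, minus), chr10:4611989-5005633 (Esr1, 13982, plus) and chr9:8898900-8968611 (Pgr, 18667, plus). Sox9 (20682) lies at chr11:112782210-112787757 on the plus strand, Sox10 (20665) at chr15:79154913-79164490 on the minus strand and Trp63 (22061) at chr16:25683763-25892088 on the plus strand. Tfap2a (21418) lies at chr13:40713802-40738238 on the minus strand and Tfap2c (21420) at chr2:172545678-172558622 on the plus strand. Values are sums over the exons of each gene.

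Levels are given as CPM, the reads of a gene per M reads of an effective library size, from 22.4 to 33.7 M reads per sample. A gene needed 3 reads to count as detected, a floor of 0.0917 to 0.146 CPM in a single library that covers counting error only. Of the 56 libraries, 54 resembled another library of their own line best. The 2 exceptions were untreated samples of the Wnt3a experiment, replicate 1 of dm/fl and replicate 2 of D164A/fl, which was closest to a D164A/- library, and leaving out both changed 2 calls of 144, the untreated Gata3 difference of D164A/fl cells and the Wnt3a change of Tfap2c, given below without them. Ctnnb1, which encodes β-catenin, was read in every sample, at 531.5 to 3188 CPM. The epithelial identity named by the labels was checked with Krt8, Krt18, Epcam and Cdh1, which reached at least 167, 369, 75.3 and 49.9 CPM in every sample. Of the other luminal markers listed, only Cldn3 stayed high, at 14.9 CPM or more. Cldn4 and Cldn7 fell as low as 1.47 and 0.294 CPM. Krt19 was at 0 in 29 samples and Prom1 in 12, and Muc1 reached 1 CPM in only 18. Of the 10 genes, 9 reached 1 CPM in at least 2 samples and were tested. Sox10 was not.

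The untreated lines differed widely in their lineage factors. All 9 tested factors differed among the 7 lines in the limma F test (adjusted p = 1.36e-27 for Elf5 to 5.85e-06 for Sox9), but so did 75.5% of all genes tested, and the count is therefore no property of these factors. Sizes varied far more than the calls. Line means of Elf5 spanned from 494 CPM in D164A/- cells to 0.00764 CPM in dm/- cells, the latter from 1 read and below detection. The line means of Tfap2a lay between 24.4 and 95.6 CPM and those of Sox9 between 124 and 359 CPM. The plot of untreated levels shows the 4 samples of each line. Against fl/fl cells, a call needed an adjusted p of at most 0.05 and a log2 difference of at least 1 on the log2(CPM + 1) scale, which understates the change of low genes. Of the 9 factors, 6 were called in D164A/fl (16.2% of all genes were called in this comparison), 5 in D164A/- (18.9%), 4 in ΔC/fl (16.6%), 4 in ΔC/- (23%), 4 in dm/fl (21.1%) and 5 in dm/- cells (17.9%). The 28 calls comprised 17 higher and 11 lower values, and all 6 comparisons share the fl/fl samples. The 4 calls of dm/fl cells include Pgr, which had to differ there through the filter on low values. In such bulk samples, fewer cells of a type and less RNA per cell cannot be told apart.

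**Figure D1:**
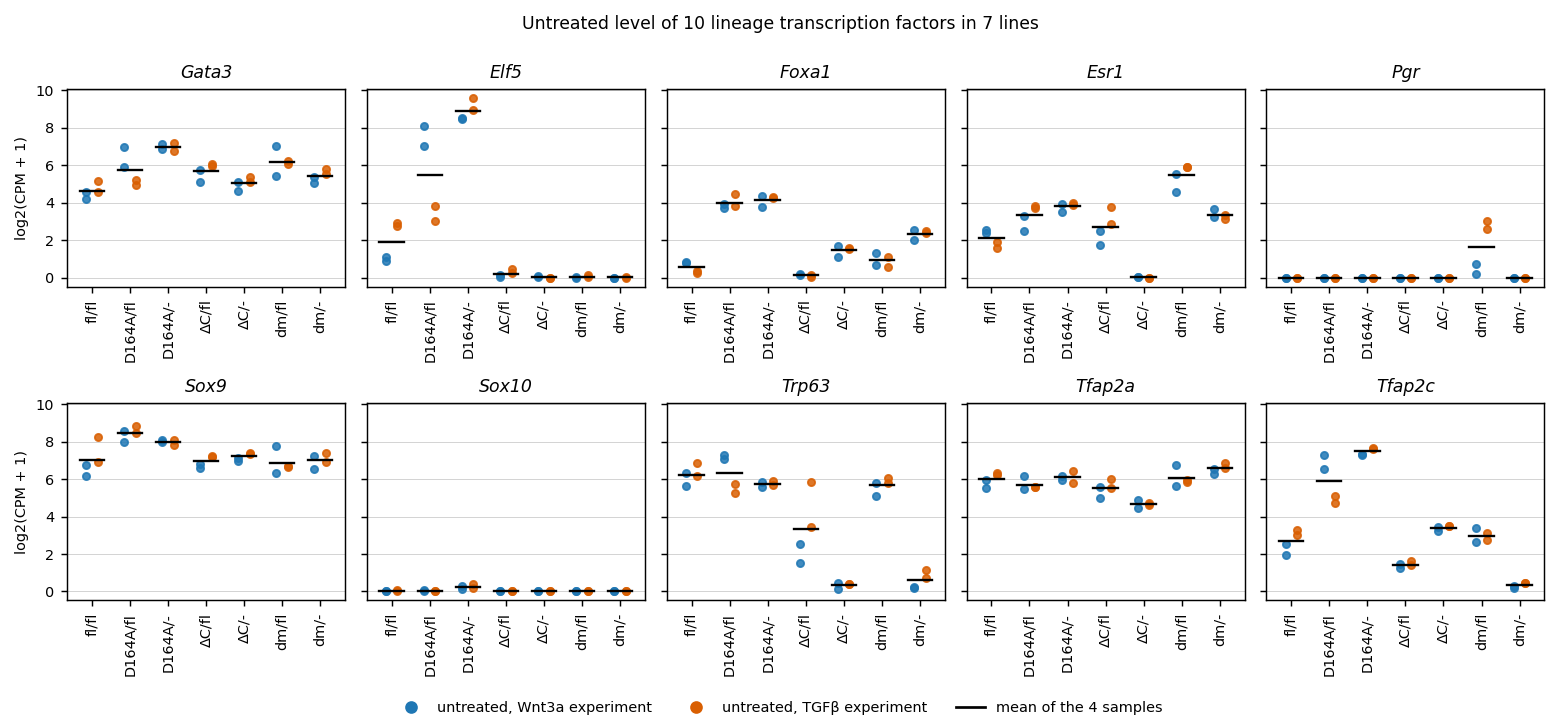
Untreated level of each factor on the log2(CPM + 1) scale (vertical axis) in the 7 lines (horizontal axis), with points for single samples of the Wnt3a experiment (blue) and the TGFβ experiment (orange) and a bar for the mean of the 4 samples. Elf5 and Tfap2c stood highest in the D164A lines, Esr1 and Pgr in dm/fl cells, and Trp63 lay near 0 in ΔC/- and dm/- cells.

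Elf5, the regulator of milk-forming alveolar cells, was read at 349, 362, 768 and 497 CPM in the untreated D164A/- samples, a mean of 494 ± 194 CPM (SD, n = 4). D164A/fl cells followed with 129, 268, 7.11 and 13.4 CPM, and fl/fl cells with 0.883, 1.15, 6.44 and 5.88 CPM. In the remaining 4 lines Elf5 did not exceed 0.360 CPM without cytokine, and in ΔC/-, dm/fl and dm/- cells it was at or near the limit of detection. The 3 leading lines did not overlap with the line below them, while the 4 lowest overlapped with each other. Relative to fl/fl cells Elf5 was 138-fold higher in D164A/- (log2 difference 6.95, SE 0.21, limma adjusted p = 3.37e-23) and 29.1-fold higher in D164A/fl cells (3.57, SE 0.21, adjusted p = 1.69e-15). It was 21.5-fold lower in ΔC/fl and 92.1-fold lower in dm/fl cells. In the Wnt3a experiment alone fl/fl cells held about 1.02 CPM, so even a full loss could hardly pass 1 on the log2(CPM + 1) scale. The differences there were -0.93 (limma adjusted p = 0.0259) and -0.99 (limma adjusted p = 0.00998), under the size needed for a call.

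The Elf5 level of D164A/fl cells depended on the experiment. The untreated samples of the Wnt3a experiment had a mean of 198 CPM and those of the TGFβ experiment 10.3 CPM, a 19.3-fold difference within the same genotype. Accordingly, D164A/fl exceeded fl/fl cells by 6.54 on the log2 scale in the Wnt3a experiment (adjusted p = 4.93e-18) and by 0.60 in the TGFβ experiment (adjusted p = 0.178). Tfap2c, Trp63 and Gata3 showed the same split in D164A/fl cells. Tfap2c was 4.15-fold, Trp63 3.25-fold and Gata3 2.81-fold higher in the untreated samples of the Wnt3a experiment, without overlap. In fl/fl cells the split ran the other way, with Elf5 6.06-fold lower in the Wnt3a experiment. The labels give no date or passage for the experiments, and the part of culture history in this split was not tested.

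Gata3, the luminal identity factor, was present in every sample, between 9.88 and 152 CPM. Its untreated mean was 126 ± 18.1 CPM in D164A/- cells (106 to 144 CPM) and 24.6 ± 6.88 CPM in fl/fl cells (17.7 to 34.1 CPM, SD, n = 4 each). The other 5 lines lay between these values and every line overlapped with its neighbour in the order. The D164A/- level was 5.12-fold that of fl/fl cells (log2 difference 2.34, SE 0.26, adjusted p = 7.66e-09), and the differences of D164A/fl (1.12, adjusted p = 0.0012), ΔC/fl (1.08, adjusted p = 0.00176) and dm/fl cells (1.55, adjusted p = 1.78e-05) were smaller. In the untreated cells of the TGFβ experiment alone the D164A/fl difference was 0.21 (adjusted p = 0.794), and without replicate 2 of D164A/fl in the Wnt3a experiment it was 0.85 and no longer called. Without fl/fl replicate 1 of the TGFβ experiment it was 0.99, and the ΔC/fl difference fell to between 0.91 and 0.98 without untreated replicate 2 of ΔC/fl or of fl/fl in the Wnt3a experiment or replicate 1 of fl/fl in the TGFβ experiment. Exons of Gata3 overlap those of 9230102O04Rik on the same strand and Gm13256 on the opposite strand, and the strand setting of the counting is not stated, so reads could be shared between them.

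Foxa1, the pioneer factor of hormone-sensing luminal cells, was highest in the 2 D164A lines. The untreated samples of D164A/- cells lay between 12.5 and 19.5 CPM and those of D164A/fl cells between 12.4 and 21.0 CPM, and these 2 lines overlapped. The dm/- cells followed at 3.04 to 4.77 CPM, and the other 4 lines did not exceed 2.20 CPM. Against fl/fl cells (0.504 ± 0.297 CPM) Foxa1 was 34.2-fold higher in D164A/- (log2 difference 3.60, SE 0.19, adjusted p = 7.3e-17), 29.9-fold higher in D164A/fl (3.41, SE 0.19, adjusted p = 5.24e-16) and 8.20-fold higher in dm/- cells (1.78, SE 0.19, adjusted p = 3.62e-09).

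Esr1, which encodes the estrogen receptor α, was read at 23.2, 45.6, 60.1 and 59.3 CPM in untreated dm/fl cells. All 4 values exceeded every untreated value of the other lines, the highest of which was 14.97 CPM in D164A/- cells. In ΔC/- cells the 4 untreated libraries held 2 Esr1 reads in all, below the limit of detection. The dm/fl level was 13.6-fold that of fl/fl cells (log2 difference 3.39, SE 0.26, adjusted p = 1.22e-12). In the TGFβ experiment this difference was 4.15 and in the Wnt3a experiment 2.62. D164A/- cells, D164A/fl cells and dm/- cells were 3.88-, 2.82- and 2.67-fold above fl/fl cells, but in the Wnt3a experiment alone the D164A/fl difference was 0.46 (adjusted p = 0.369) and the dm/- difference 0.999 (adjusted p = 0.0433), neither called. Each overlapped with its neighbour in the order.

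Pgr, the progesterone receptor gene and a classical estrogen receptor target, was listed at 0 in 46 of 56 samples. Of its 431 reads in the whole series, 400 lay in the 4 untreated dm/fl libraries, at 0.635 and 0.154 CPM in the Wnt3a experiment and 6.99 and 4.97 CPM in the TGFβ experiment. These were 15.2-fold apart between the experiments. The other 6 lines held no untreated Pgr read, so the dm/fl mean of 3.19 CPM was at least 116-fold that of fl/fl cells, counted against 3 reads over the group. Pgr passed the filter on low values only through the 2 untreated dm/fl libraries of the TGFβ experiment, and therefore had to differ there.

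Some markers of other cell types were also high in untreated dm/fl cells. The summed level of the 6 leukocyte markers was 292 to 533 CPM in untreated dm/fl samples and 1.27 to 88.0 CPM in the other 6 lines. Csf1r accounted for a mean of 397 CPM in dm/fl, while Ptprc, the general leukocyte marker, did not exceed 0.208 CPM in any of the 56 samples and Adgre1 and Cd3e did not exceed 0.0828 CPM. The 7 fibroblast markers summed to 125 to 537 CPM in untreated dm/fl and 107 to 745 CPM in ΔC/fl samples, against 5.58 to 105 CPM in the other 5 lines, with Pdgfrb at a mean of 146 CPM in dm/fl and 277 CPM in ΔC/fl cells and Lum and Thy1 at no more than 0.116 CPM in any sample. Fabp4, the only adipocyte marker tested, averaged 9.12 CPM in dm/fl cells, and Pecam1 and Cdh5, the 2 endothelial markers tested, had untreated line means of at most 0.748 and 0.251 CPM. Adipoq, Plin1 and Cfd were at no more than 0.0851 CPM. The part of these transcripts in the Esr1 and Pgr levels was not tested.

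Sox9, a progenitor factor, was abundant in every line. The untreated mean was 359 ± 83.1 CPM in D164A/fl and 254 ± 21.8 CPM in D164A/- cells, and 124 to 151 CPM in the other 5 lines (SD, n = 4), and every line overlapped with its neighbour. Only the D164A/fl difference from fl/fl cells was called (log2 difference 1.44, SE 0.27, adjusted p = 6.97e-05). Sox10, the neural crest and progenitor factor, was close to absent. The whole series held 54 Sox10 reads, 40 of 56 samples were at 0, and the highest value was 0.356 CPM. The 21 reads in untreated D164A/- cells, at 0.109, 0.211, 0.154 and 0.343 CPM, stood above the other lines, whose untreated libraries held 3 reads in all lines together.

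Trp63, the basal master regulator, was low in 2 of the 7 untreated lines. Untreated D164A/fl samples held 37.1 to 156 CPM, fl/fl samples 49.3 to 113 CPM, D164A/- samples 47.4 to 59.2 CPM and dm/fl samples 33.4 to 64.6 CPM, and these lines overlapped. ΔC/fl cells were uneven, at 1.88 and 4.83 CPM in the Wnt3a experiment and 55.5 and 9.75 CPM in the TGFβ experiment. In ΔC/- and dm/- cells no untreated value exceeded 1.25 CPM, and neither line overlapped with any of the other 5. The level was 295-fold lower in ΔC/- (log2 difference -5.91, SE 0.34, adjusted p = 8.36e-16) and 137-fold lower in dm/- than in fl/fl cells (-5.65, SE 0.34, adjusted p = 2.81e-15). The ΔC/fl difference was -2.91 (adjusted p = 1.7e-08), with -3.94 in the Wnt3a and -1.88 in the TGFβ experiment.

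Tfap2c and Tfap2a encode AP-2γ and AP-2α, which act in luminal cells and in their precursors. Tfap2c was read at 160, 157, 192 and 204 CPM in untreated D164A/- cells and at 90.6, 155, 25.5 and 33.7 CPM in D164A/fl cells. Neither of the D164A lines overlapped with the next line, as the other 5 lines stayed at or below 10.5 CPM, and dm/- cells held 0.119 to 0.389 CPM. Relative to fl/fl cells, Tfap2c was 30.5-fold higher in D164A/- (log2 difference 4.78, SE 0.25, adjusted p = 8.07e-17), 13.0-fold higher in D164A/fl (3.22, SE 0.25, adjusted p = 2.95e-12) and 21.3-fold lower in dm/- cells (-2.35, SE 0.25, adjusted p = 4.47e-09). Tfap2a varied less. It was lower than in fl/fl cells only in the ΔC/- line (24.4 ± 3.16 against 64.1 ± 14.8 CPM, SD, n = 4, log2 difference -1.34, adjusted p = 6.35e-05), among the 6 comparisons made. Exons of Tfap2a overlap Gm26688, Gm47061 and Gm47067 on the opposite strand, so its reads could be shared.

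The deleted and the floxed line of each mutant differed in 12 of 27 tests, with 6 factors higher and 6 lower in the deleted line. For D164A, 3 of 9 were called, all higher (9.45% of all genes). Gata3 differed by 1.22 (adjusted p = 0.000837), Elf5 by 3.38 (adjusted p = 3.83e-14) and Tfap2c by 1.57 (adjusted p = 1.73e-05). In the untreated cells of the TGFβ experiment alone the differences were 1.89, 5.84 and 2.71, and in those of the Wnt3a experiment 0.54 (adjusted p = 0.868), 0.93 (adjusted p = 0.0781) and 0.42 (adjusted p = 1), so all 3 calls were lost there. Without untreated replicate 1 of D164A/fl in the Wnt3a experiment the Gata3 difference was 0.95 and no longer called. For ΔC, 4 of 9 were called (12.2%), with Foxa1 19.1-fold and Tfap2c 5.63-fold higher and Trp63 68.2-fold lower in ΔC/- cells, while Esr1 was below detection there. The Trp63 log2 difference of -2.996 was -1.76 in the Wnt3a and -4.23 in the TGFβ experiment, and -2.40 without the untreated ΔC/fl replicate 1 of the TGFβ experiment, whose 55.5 CPM dominate the ΔC/fl mean. For dm, 5 of 9 were called (18.3%), and Pgr had to be among them through the filter. Foxa1 was 4.37-fold higher in dm/- cells, Esr1 5.10-fold, Tfap2c 25.8-fold and Trp63 91.1-fold lower, and Pgr at least 120.0-fold lower.

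Levels of different genes can be set side by side per kb of exon. In untreated D164A/- cells Elf5 led with 84.0 CPM per kb, before Sox9 with 61.5, Tfap2c with 48.5 and Gata3 with 31.6 CPM per kb. In D164A/fl cells Sox9 led with 86.9 CPM per kb, followed by Tfap2c with 20.7 and Elf5 with 17.8 CPM per kb. Sox9 had the highest per-length mean of the 10 in every line except D164A/-. Esr1, with long exons, reached 3.44 CPM per kb in dm/fl cells and Foxa1 5.19 CPM per kb in D164A/- cells.

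**Figure D2:**
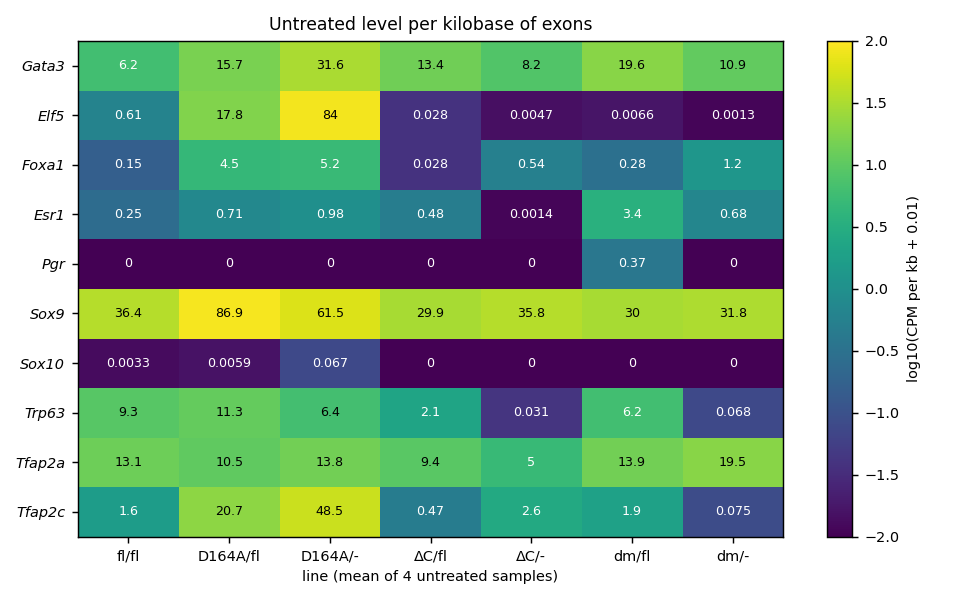
Mean untreated level per kb of exon (colour, CPM per kb) for the 10 factors in the 7 lines, each cell the mean of 4 samples. Sox9 was strong in every line, at 29.9 to 86.9 CPM per kb, and Elf5 reached 84.0 CPM per kb in D164A/- cells only.

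After TGFβ, lineage factors were called lower in 6 of the 7 lines. Of 63 tests of a factor in a line, 20 were called, 19 of them lower after TGFβ and 1 higher, whereas 6.35% of all gene-by-line pairs were called. The counts were 4 of 9 in fl/fl (6.25% of all genes in that line), 2 in D164A/- (4.06%), 4 in ΔC/fl (7.74%), 3 in ΔC/- (6.55%), 5 in dm/fl (10.3%) and 2 in dm/- cells (6.12%), and none was called in D164A/fl cells (3.38%), where 1 factor had an unadjusted p under 0.05 in limma. The median log2 change of the 9 factors was -1.12 in fl/fl, -1.56 in dm/fl and -0.94 in ΔC/fl cells, where the median over all genes was -0.03, -0.02 and 0.02. It lay between -0.30 and -0.12 in the other 4 lines. The 5 calls of dm/fl cells include Pgr, which had to differ there through the filter. When only the samples of a comparison were fitted, there were 12 calls, and every call in D164A/-, ΔC/fl and dm/- cells was lost (adjusted p of 0.0628 to 0.155). The plot of TGFβ levels shows every sample.

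**Figure D3:**
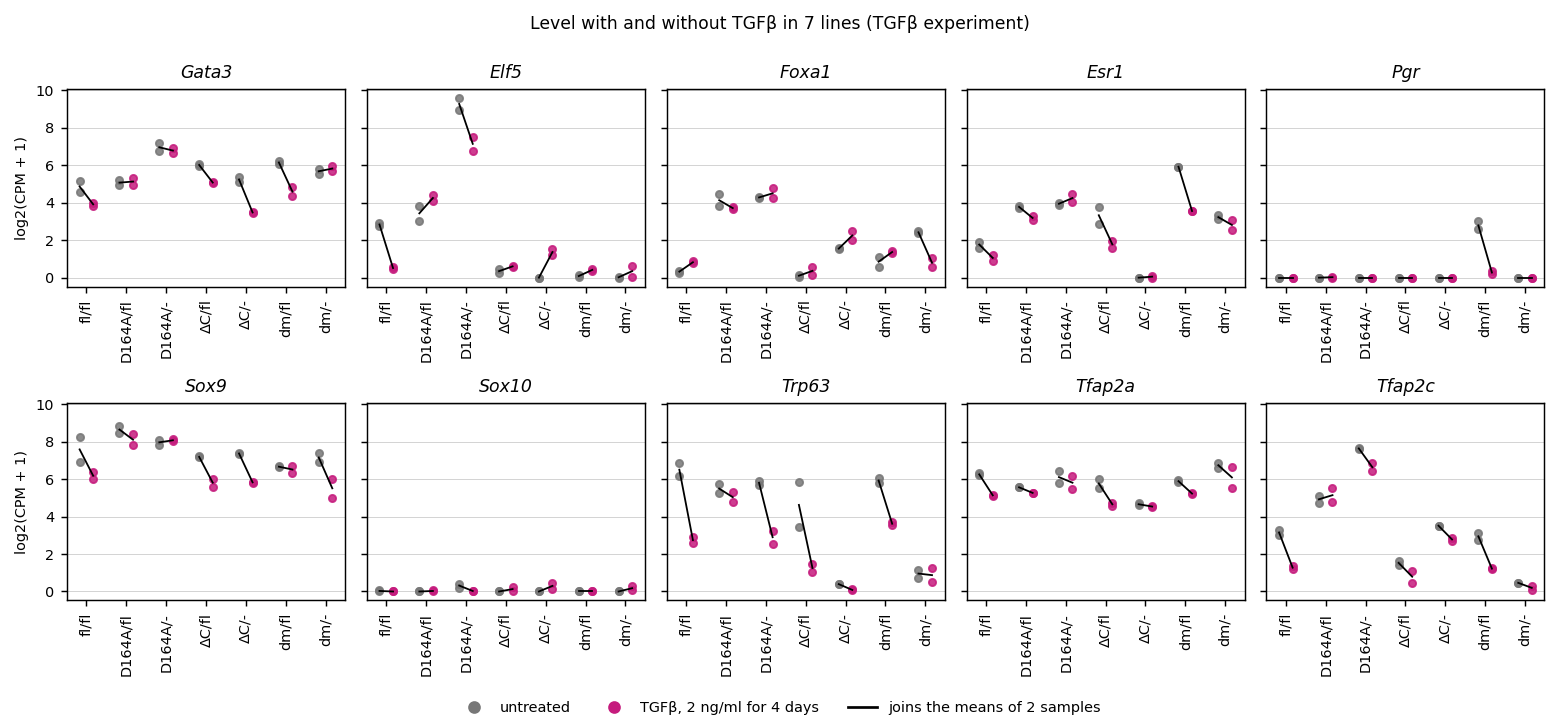
Level of each factor on the log2(CPM + 1) scale in the TGFβ experiment, untreated (grey) and with TGFβ (magenta), with a point per sample and a line joining the means of 2 replicates in each line. Trp63 fell from 113 and 71.1 to 4.97 and 6.55 CPM in fl/fl cells, while no change was called in D164A/fl cells.

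Trp63 was lowered in 4 lines. In fl/fl cells it went from 113 and 71.1 CPM to 4.97 and 6.55 CPM, 16.0-fold lower (log2 difference -3.76, SE 0.47, limma adjusted p = 6.46e-07). In D164A/- cells it went from 50.45 and 59.2 to 8.51 and 4.84 CPM (-2.90, adjusted p = 6.45e-05), and in dm/fl cells from 55.3 and 64.6 to 10.5 and 12.03 CPM (-2.31, adjusted p = 0.00058). Treated and untreated samples did not overlap in these lines. In ΔC/fl cells the change from 55.5 and 9.75 to 1.75 and 1.06 CPM (-3.37, adjusted p = 4.39e-06) was -2.17 without the untreated replicate 1. D164A/fl samples were at 37.1 and 52.3 CPM without and 26.1 and 38.7 CPM with TGFβ, which was not called. Trp63 was the only one of the 9 called on the mean of the 7 lines (-1.88, SE 0.18, adjusted p = 4.41e-10), where 4.88% of all genes were called.

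Elf5 moved in both directions. It fell 14.4-fold in fl/fl cells, from 6.44 and 5.88 to 0.488 and 0.368 CPM (log2 difference -2.33, SE 0.30, adjusted p = 7.82e-07), and 4.35-fold in D164A/- cells, from 768 and 497 to 183 and 108 CPM (-2.13, adjusted p = 4.67e-06). In ΔC/- cells, by contrast, it was read at 1.89 and 1.304 CPM after TGFβ and not at all before, at least 30.6-fold higher (1.37, adjusted p = 0.00196). The D164A/fl values were 7.11 and 13.4 CPM without and 15.8 and 20.6 CPM with TGFβ, without overlap but not called (0.82, adjusted p = 0.132). Its mean change over the lines was -0.19 with limma (adjusted p = 0.215) and 1.497 with edgeR (adjusted p = 0.00257), so its direction depended on the test.

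Tfap2c fell 5.57-fold in fl/fl cells, from 8.66 and 7.15 to 1.55 and 1.29 CPM (log2 difference -1.88, adjusted p = 0.000399), and 5.09-fold in dm/fl cells, from 5.81 and 7.71 to 1.31 and 1.35 CPM (-1.73, adjusted p = 0.000688). In D164A/- cells it went from 192 and 204 to 114 and 84.8 CPM, which did not overlap and was not called (-1.001, adjusted p = 0.126). Tfap2a fell 2.24-fold in ΔC/fl cells (-1.11, adjusted p = 0.0416), a call that was lost when any of its 4 libraries was left out (adjusted p of 0.0648 to 0.348), and in fl/fl cells it missed the threshold (-1.12, adjusted p = 0.0511).

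Among the hormone-sensing factors, dm/fl cells changed most. Esr1 went from 60.1 and 59.3 to 10.97 and 10.6 CPM, 5.54-fold lower (log2 difference -2.37, adjusted p = 9.27e-06). Pgr went from 6.99 and 4.97 to 0.156 and 0.263 CPM, 28.6-fold lower (-2.52, limma adjusted p = 8.96e-16, edgeR adjusted p = 0.0237), a gene that entered the test through these untreated samples. The leukocyte marker sum of dm/fl cells was 311 to 449 CPM in treated samples of both experiments, near the untreated range, and the fibroblast sum was 45.6 to 144 CPM. The endothelial sum was 0.185 to 0.363 CPM in untreated and 0.836 to 35.2 CPM in treated dm/fl samples, with Cdh5 at up to 35.0 CPM, and Fabp4 carried an adipocyte sum of 1.09 to 23.6 CPM in untreated and 0.460 to 1.18 CPM in treated ones. The part of these markers in the changes was not tested. In ΔC/fl cells Esr1 fell from 12.7 and 6.41 to 1.99 and 2.94 CPM (-1.55, adjusted p = 0.00334), which was -1.11 (adjusted p = 0.144) without the untreated replicate 1 and -1.36 (adjusted p = 0.0813) without the treated replicate 1. Foxa1 fell in dm/- cells alone among the 7 lines, from 4.55 and 4.17 to 1.06 and 0.463 CPM, 5.73-fold (-1.63, adjusted p = 7.27e-05).

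Gata3 fell 3.64-fold in ΔC/- cells, from 33.4 and 40.5 to 10.5 and 9.88 CPM (log2 difference -1.76, adjusted p = 0.00161), and 2.98-fold in dm/fl cells, from 66.8 and 73.3 to 19.2 and 27.9 CPM (-1.56, adjusted p = 0.00326). The dm/fl call was lost without the treated replicate 1 (-1.298, adjusted p = 0.077). In fl/fl cells 23.2 and 34.1 CPM became 13.1 and 15.1 CPM (-0.95, adjusted p = 0.154), and in ΔC/fl cells 66.2 and 61.3 CPM became 31.8 and 33.8 CPM (-0.94, adjusted p = 0.128), without overlap but not called. In D164A/-, D164A/fl and dm/- cells treated and untreated samples overlapped.

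Sox9 was lowered in 4 lines, by 2.59- to 3.03-fold, and each of these calls was lost without some single libraries. In fl/fl cells 307.5 and 118 CPM became 81.9 and 62.3 CPM (log2 difference -1.40, adjusted p = 0.0155), and the change was -0.72 (adjusted p = 0.643) without the untreated replicate 1 and -1.21 (adjusted p = 0.208) without the treated replicate 2. In ΔC/fl cells 142 and 147 CPM became 47.2 and 64.4 CPM (-1.37, adjusted p = 0.0152), with adjusted p of 0.0784, 0.0972 and 0.218 without the untreated replicate 1, the untreated replicate 2 and the treated replicate 1. In ΔC/- cells 169 and 160 CPM became 54.1 and 57.4 CPM (-1.54, adjusted p = 0.00707), lost without the untreated replicate 1 (adjusted p = 0.0725), the treated replicate 1 (0.059) or the treated replicate 2 (0.0534). In dm/- cells 169 and 118 CPM became 64.0 and 30.8 CPM (-1.64, adjusted p = 0.00423), lost without the untreated replicate 1 (0.0981) or the treated replicate 2 (0.194). Treated and untreated samples did not overlap in any of the 4 lines. Sox10 was not tested. It was read at 0.116 and 0.356 CPM in ΔC/- cells with TGFβ and at 0 without, and at 0 and 0.0367 CPM in D164A/- cells with TGFβ against 0.154 and 0.343 CPM without.

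The TGFβ response differed among the lines for 8 of the 9 factors, where 18.3% of all genes did, and Tfap2a was the exception (limma F test, adjusted p = 0.701). Pgr was 1 of the 8 and had to differ through the filter. The F test of edgeR called 6 factors, without Pgr and without Sox9 (adjusted p = 0.0572). The difference between the deleted and the floxed line was then tested for each mutant. For D164A, where 1.35% of all genes were called, Elf5 moved in opposite directions, from a mean of 632 to 145 CPM in D164A/- and from 10.3 to 18.2 CPM in D164A/fl cells (difference of log2 changes -2.95, SE 0.42, limma adjusted p = 3.14e-05, edgeR adjusted p = 0.167), while Trp63 missed the threshold (-2.44, adjusted p = 0.0561). For ΔC (3.13%), the fall of Trp63 in ΔC/fl had no counterpart in ΔC/- cells, in which it was already near 0 (3.06, adjusted p = 0.00542), and without the untreated replicate 1 of ΔC/fl this was 1.86 (adjusted p = 0.108). For dm (7.31%), 5 of 9 were called. Foxa1 fell in dm/- and had a change of 0.52 in dm/fl cells that was not called, a difference of -2.14 (adjusted p = 0.000193). Trp63, Esr1 and Gata3 fell in dm/fl cells and had changes of -0.08, -0.42 and 0.14 in dm/- cells, none of them called, which gave differences of 2.23, 1.95 and 1.70 (adjusted p = 0.0331, 0.0124 and 0.0411). The Pgr difference of 2.52 was fixed by the filter and by values of 0 in all dm/- samples, and edgeR gave an adjusted p of 1. Gata3 was lost without any one of the 8 libraries except the treated replicate 2 of dm/fl (adjusted p of 0.0615 to 0.185). Trp63 was lost without any of the dm/fl libraries, the untreated replicate 2 of dm/- or the treated replicate 1 of dm/- (0.0779 to 0.199), and Esr1 without the untreated replicate 1 of either line or the treated replicate 1 of dm/- (0.0521 to 0.0905). In untreated dm/- cells of the TGFβ experiment Pgr was at 0 and Trp63 at 1.25 and 0.672 CPM.

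Wnt3a changed few of these factors. Of 63 tests 2 were called, both lower and both in D164A/fl cells, and 0.862% of all gene-by-line pairs were called. Foxa1 went from 14.0 and 12.4 to 5.20 and 5.09 CPM (log2 difference -1.20, SE 0.27, limma adjusted p = 0.00319), and Tfap2c from 90.6 and 155 to 54.6 and 46.6 CPM (-1.22, SE 0.36, adjusted p = 0.0392). Both were lost with edgeR (adjusted p = 0.185 and 0.116). Tfap2c was also lost without the untreated replicate 2 that resembled D164A/- (-0.83, adjusted p = 0.437), the treated replicate 1 (adjusted p = 0.129) or the treated replicate 2 (adjusted p = 0.312), and Foxa1 without the untreated replicate 1 (-1.12, adjusted p = 0.0511). In D164A/- cells Foxa1 was at 19.5 and 12.5 CPM without and 7.73 and 7.19 CPM with Wnt3a, which was not called. None of the 9 factors differed among lines in its Wnt3a response in the limma F test (2.39% of all genes did), with 1 at an unadjusted p under 0.05, and edgeR also called 0.

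**Figure D4:**
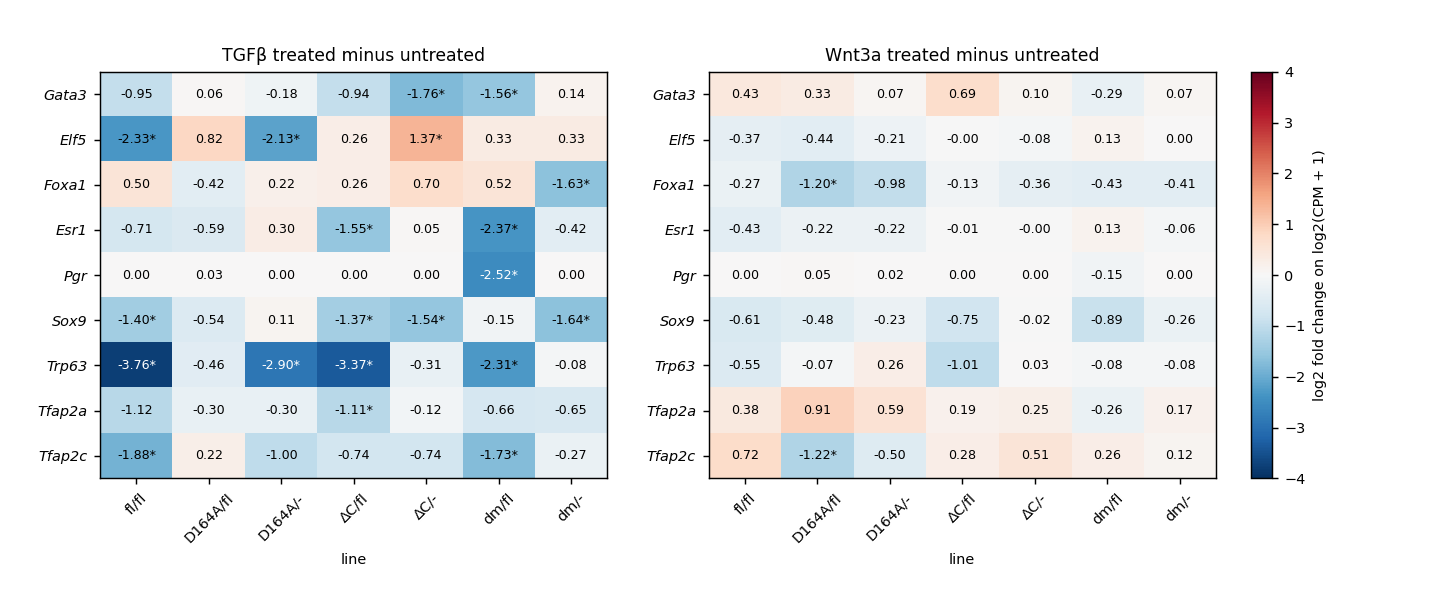
Log2 change of each tested factor (rows) with TGFβ and with Wnt3a in the 7 lines (columns), on the log2(CPM + 1) scale, with an asterisk where the change was called. TGFβ carried 20 asterisks, 19 of them on decreases, and Wnt3a carried 2, both in D164A/fl cells.

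Of 28 tested other lineage regulators, 8 were called on the mean TGFβ change over the 7 lines, all lower, where 4.88% of all genes were called and 2.2% were called lower, with a median of -0.51 against -0.02 over all genes. They included Grhl1 (-1.91, SE 0.15, adjusted p = 6.48e-12), Grhl3 (-1.45) and Ovol1 (-1.70), which act in epithelial barrier formation. Hey1 was highest in D164A/- cells (206 CPM). Tfap2b, another AP-2 gene, had untreated line means of 29.9 to 36.5 CPM in fl/fl, ΔC/fl and dm/fl cells. Single untreated samples of these lines lay between 12.3 and 61.8 CPM. In D164A/fl, D164A/-, ΔC/- and dm/- cells every untreated sample was at 0.

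Of 7 tested hormone receptor output genes, 4 were lower and 1 higher after TGFβ in dm/fl cells, where 10.3% of all genes were called and 6.88% were called lower, with a median of -1.61. Greb1, an estrogen target, averaged 77.2 CPM in dm/fl cells and at most 0.377 CPM in the other lines without cytokine. On the mean of the lines Wnt4 (-1.54) and Prlr (-1.13) were lower and Cxcl12 (1.23) higher. Igfbp4 was highest in ΔC/fl (144 CPM) and Prlr in D164A/- cells (171 CPM).

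Of 7 tested Elf5-linked milk genes, all 7 were higher in untreated D164A/- than in fl/fl cells, with a median of 3.44 (8.94% of all genes were called higher), and 6 fell with TGFβ in D164A/- cells (1.36% of all genes were called lower), with a median of -2.99. Genes that pass the filter through the line where they are high must differ there, so the count alone supports nothing. Csn3, the most abundant of them, was the exception only in that it was not called lower in D164A/- cells. Over the 7 lines Csn3 was called higher with TGFβ in 2 and lower in 0. The summed level of the milk genes in D164A/- cells was 692 to 7062 CPM in untreated and 189 to 1759 CPM in treated samples of both experiments. Csn3 and Csn1s1, which encode caseins, averaged 3294 CPM (545 to 5387) and 563 CPM (56.7 to 1230) in untreated D164A/- cells. Btn1a1 averaged 149 CPM (65.8 to 288) there. Ltf did not follow the order of Elf5. It averaged 10.8 CPM in untreated D164A/-, 45.3 CPM in D164A/fl and 71.0 CPM in dm/fl cells, where Elf5 was near the limit of detection. On the mean of the lines Ltf (-1.97) and Btn1a1 (-1.15) were lower. Of 15 tested p63-linked genes, 4 were called higher and 2 lower on the mean TGFβ change of the lines, where 2.68% of all genes were called higher and 2.2% lower. Fermt1 (1.97) and Sfn (1.65) were among the higher ones and Dsg3 (-1.53) among the lower ones. In untreated ΔC/- and dm/- cells, where Trp63 was near 0, 6 and 8 of the 15 were below fl/fl cells and 1 in each was above, and 10.9% and 8.62% of all genes were called lower in these comparisons. Krt5 and Col17a1 averaged 282 and 132 CPM in D164A/fl cells. Of 8 tested Sox10-linked genes, 1 was called on the mean, Mitf (-1.32), where 4.88% of all genes were called. Mia and Cdh19 averaged 9.67 and 11.5 CPM in untreated D164A/- cells and 9.35 and 3.14 CPM in untreated D164A/fl cells. Mitf had its lowest untreated line mean in D164A/- cells, at 4.63 CPM.

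Among marker lists, none of the 10 luminal epithelial genes was called on the mean TGFβ change. For this and the following lists, the share over all genes was 4.88% called, with 2.68% higher and 2.2% lower. Of 7 tested luminal progenitor genes Itga2 (1.504) was higher and Lcn2 (-1.78) and Ltf (-1.97) lower. Acta2 (1.20) was the 1 called of 9 tested basal or myoepithelial genes. Col1a1 (2.27) was the 1 called of 5 tested fibroblast genes and was called higher in 6 lines, and Cdh5 (1.21) the 1 called of 2 endothelial genes. The leukocyte genes Csf1r (1.31) and Cd68 (-1.04) moved in opposite directions.

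The genes most like each factor over the 28 condition means were ranked by Pearson's r among 12205 genes (12206 for Pgr), as a description in which conditions share lines. Elf5 was matched best by BC016548 (0.988), D630039A03Rik (0.975) and Sptlc3 (0.971), Pgr by Lpl (0.955), Phf11d (0.886) and Mrgprb2 (0.845), and Foxa1 by Dpysl5 (0.925), Pgap4 (0.908) and Nudt11 (0.898). For Tfap2c these were BC006965 (0.915), Scd3 (0.908) and Btbd3 (0.903), for Esr1 Tacc1 (0.895), Ndufa1 (0.868) and Khdrbs3 (0.846), and for Gata3 Amer1 (0.894), Nfix (0.892) and Stat5a (0.88). Trp63 was followed by Kcnj15 (0.893), Fxyd3 (0.889) and Hebp1 (0.884), Sox9 by Ptpn18 (0.85), Tnrc6c (0.849) and B3gntl1 (0.848), and Tfap2a by AA986860 (0.83), Pan2 (0.825) and Aldh5a1 (0.823). Among the factors themselves, Elf5 and Tfap2c were closest (0.89), then Elf5 and Foxa1 (0.796), Foxa1 and Sox9 (0.765), and Sox9 and Tfap2c (0.755).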

How the data were processed

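RNA-sequencing of 56 samples was read from 1 deposited table of 20314 genes, whose values the authors made from stranded poly(A) libraries, mapped with STAR to mm10 and counted in RefSeq exons with QuasR. Strand use in counting is not given in the sources used here. The deposited unit is a signal, gene counts scaled per M reads with a size factor per library, called CPM. All values were whole multiples of 1 read (tolerance 0.001 reads), so whole reads were recovered. Entrez IDs were matched to symbols for 20261 genes. The 13754 genes with at least 1 CPM in 2 samples were tested on log2(CPM + 1) with limma 3.58.1 (R 4.3.3) over 28 condition means with trended variance and Benjamini-Hochberg adjustment. A call needed an adjusted p of at most 0.05 and, except for F tests, an absolute log2 change of at least 1. edgeR 4.0.16 on the recovered reads, DESeq2 1.42.0 size factors and the settings in the closing section were alternatives, and the scripts were tested on simulated data. Named were all 10 factors, the 3 genes most correlated with each, and from each list up to 3 genes by mean TGFβ change and up to 3 by untreated range, plus defining markers, except that some list genes are not reported here. The factors and lists were chosen with earlier results of these data known. Same-numbered replicates deviated together (r over 0.1) in 6 of 7 lines in each experiment, with a lowest r of -0.197 for TGFβ and -0.0678 for Wnt3a. The labels name no shared culture or day and pairing was accepted only with every r over 0.1, so the replicate block is an alternative.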

Additional observations from a re-analysis of the deposited data

Results flagged for a closer look

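The TGFβ change differed among the 7 lines in the limma F test for Gata3 (adjusted p = 0.0217), Elf5 (2.6e-08), Foxa1 (0.000175), Esr1 (0.00174), Pgr (2.12e-12), Sox9 (0.0443), Trp63 (4.12e-05) and Tfap2c (0.0187). Pgr had to differ through the filter, and edgeR called neither Pgr nor Sox9 in this test. The deleted and the floxed line differed in their TGFβ change, as a difference of log2 changes, for Elf5 in D164A (-2.95), Trp63 in ΔC (3.06), and Gata3 (1.70), Foxa1 (-2.14), Esr1 (1.95), Pgr (2.52) and Trp63 (2.23) in dm. In edgeR the adjusted p was 0.167 for Elf5, 0.721 for Trp63 in ΔC, 0.064 for Gata3, 0.0901 for Esr1, 1 for Pgr and 0.147 for Trp63 in dm.

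A single untreated sample stood far from the other 3 of its line in 4 of 55 groups, by the gap to its neighbour over the whole range. These were Sox9 in dm/fl (0.832, with 215 CPM against 103 CPM next), Trp63 in ΔC/fl (0.853, 55.5 against 9.75 CPM), Trp63 in ΔC/- (0.863, the lowest at 0.0828 against 0.311 CPM) and Tfap2a in D164A/fl (0.891, 70.9 against 46.2 CPM). In samples of a single normal distribution such gaps arise by chance in about 1 in 20 groups, but these groups join both experiments. The Sox9 sample was replicate 1 of dm/fl and the Tfap2a sample replicate 2 of D164A/fl, both in the Wnt3a experiment. These are the libraries that resembled another line best.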

How the results depend on the processing

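Calls of single factors kept their direction and side of the threshold in 232 of 243 values with a pseudocount of 0.1, 243 without a filter, 241 with median of ratios scaling (which moved the median of all genes by at most 0.03), 228 with edgeR, 227 when only the samples compared were fitted, 237 with a replicate block, 235 with the GC trend removed and 231 with both. The mean Elf5 change with TGFβ was -0.19 with limma and 1.497 with edgeR (adjusted p = 0.00257), and the cause was not tested. By line edgeR gave -3.84 (fl/fl), 0.83 (D164A/fl), -2.12 (D164A/-), 0.94 (ΔC/fl), 8.44 (ΔC/-), 2.33 (dm/fl) and 3.91 (dm/-). In ΔC/-, dm/fl and dm/- cells untreated Elf5 was at or near the limit of detection. TGFβ calls by line (20 factors, 6111 genes) became 12 and 3225 with only the samples compared, and 9604 genes with GC and block. Calls on the mean (1 factor, 671 genes) became 2 and 1272 with pseudocount 0.1 and 3 and 1283 with edgeR. The F test of TGFβ (8 factors, 2515 genes) gave 6 and 1504 with edgeR, and 5713 genes with only the samples compared, 4775 with the replicate block and 7756 with GC and block. Differences between deleted and floxed lines (7 factors, 1620 genes) gave 4 factors with pseudocount 0.1, 2 and 720 genes with edgeR, 11 and 3510 with the replicate block, and 13 and 4584 with GC and block. Wnt3a calls (2 factors, 830 genes) gave 0 factors with pseudocount 0.1, 0 and 453 genes with edgeR, 0 and 0 with only the samples compared, 2208 genes with the replicate block, 4 and 2168 with GC and block, and 1 factor without the 2 libraries that stood apart, a setting chosen after seeing the data. The F test of Wnt3a (0 factors, 329 genes) gave 201 genes with pseudocount 0.1, 545 without a filter, 31 with edgeR, 178 with only the samples compared, 1 factor and 849 genes with the replicate block, and 2 and 1828 with GC and block. Leaving out 1 library gave 17 to 21 factor calls for TGFβ by line, 1 to 2 on its mean, 6 to 8 in its F test, 4 to 9 for deleted against floxed lines, 1 to 4 for Wnt3a (640 to 6729 genes) and 0 to 1 in its F test (241 to 2963 genes). With the replicate block, 6 differences that were not called became so, namely TGFβ on Tfap2a in fl/fl (adjusted p = 0.00499) and on Tfap2c in D164A/- cells (0.0243), and the deleted against floxed difference of Trp63 in D164A (0.00935), Esr1 in ΔC (0.0327), and Sox9 (0.0102) and Tfap2c (0.0139) in dm. With 2 replicates a condition, changes of factors under 1 CPM rest on few reads.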
